A study of Caenorhabditis elegans with 6 samples.

Results

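The 6 small RNA libraries of this series fall on either side of a microRNA share of 80% of sense counts, and what lies on each side is described here across RNA classes and genes. The microRNA-poor side holds 3 of the 6 libraries, which were chosen by their measured microRNA share. They are replicate 1 of the ced-3 single mutant and, from the dot-1.1 ced-3 double mutant, replicates 1 and 2. The microRNA-rich side holds the other 3, with replicates 2 and 3 of the single mutant beside replicate 3 of the double mutant. Genotypes are therefore mixed on both sides. In all lists of values below, the microRNA-poor libraries come first and in that order, and the microRNA-rich libraries follow in theirs.

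All libraries came from Caenorhabditis elegans embryos grown at 20 °C and freed from egg-laying adults with hypochlorite. The single mutant carries the allele n1286 of ced-3, the caspase gene of programmed cell death. The double mutant carries the same allele together with knu339 of dot-1.1, the worm counterpart of the histone methyltransferase gene DOT1L, so every library in the series has the ced-3 mutation. No library of the wild type was analysed here. Inserts of 18 to 40 bases were selected and reads of 50 bases sequenced, per the labels. The labels call the 3 replicates of a genotype biological, and they name no batch, day or RNA preparation that sets either side apart.

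Animal microRNAs are cut from hairpin precursors by Drosha and Dicer and loaded into Argonaute proteins. In the worm embryo the mir-35 family is abundant and needed for development. A small RNA library also takes up fragments of ribosomal, transfer and messenger RNA of the selected length, and short interfering RNAs that RNA-dependent RNA polymerases copy from messenger RNA templates, which read antisense to the gene. The ERGO-1 class of interfering RNAs, made in the maternal germline and in embryos, is directed against a small group of duplicated and poorly conserved genes.

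The split itself was made from the sense counts. MicroRNA genes held 77.8%, 72.9% and 79.0% of them on the poor side and 92.4%, 86.7% and 89.5% on the rich side. The libraries nearest the threshold were replicate 2 of the double mutant, at 79.0%, and replicate 3 of the single mutant, at 86.7%. Because these counts chose the libraries, differences between the sides are given as descriptions with no test, and a gene is called apart when all 3 libraries of one side lie above all 3 of the other and the means are at least 2-fold different.

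Both the microRNA counts and the rest of each library differed between the sides. Sense totals were 19206363, 19659269 and 19529265 against 22344506, 20994087 and 26409182, so the microRNA-poor libraries were also the smaller ones. Outside microRNA genes the poor side nevertheless held more sense counts, 4271407, 5334828 and 4096804 against 1701270, 2789934 and 2771324. Antisense totals ranged from 4891289 to 6568937. In each library 87.6% to 90.3% of them lay in genes with an exon on the other strand or no matched gene model. Such counts may be sense reads of the opposite gene, and antisense totals and the scalings built on them rest mostly on these. For every 100 microRNA counts there were 28.6, 37.2 and 26.5 other sense counts on the poor side and 8.24, 15.3 and 11.7 on the rich side. Genes with at least 10 sense counts numbered 9907, 8545 and 7586 against 5213, 7899 and 5641, which overlap through replicate 3 of the single mutant. Among antisense counts such genes numbered 8068, 7850 and 8109 against 6303, 7168 and 6222, without overlap. Among the markers, the mir-35 family fitted the embryonic label in all 6 libraries, at 31.3% to 36.8% of microRNA counts. The other embryo markers, pie-1, end-1, end-3 and hlh-1, added few counts. In replicate 1 of the single mutant the whole embryo list had 4972890 sense counts and the mir-35 family 4972863. The larval microRNAs let-7, lin-4, mir-48, mir-84 and mir-241 together had 2389 to 9316 sense counts. Major sperm protein genes had 10 to 64, and the yolk protein genes of the adult intestine 7 to 813.

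**Figure D1:**
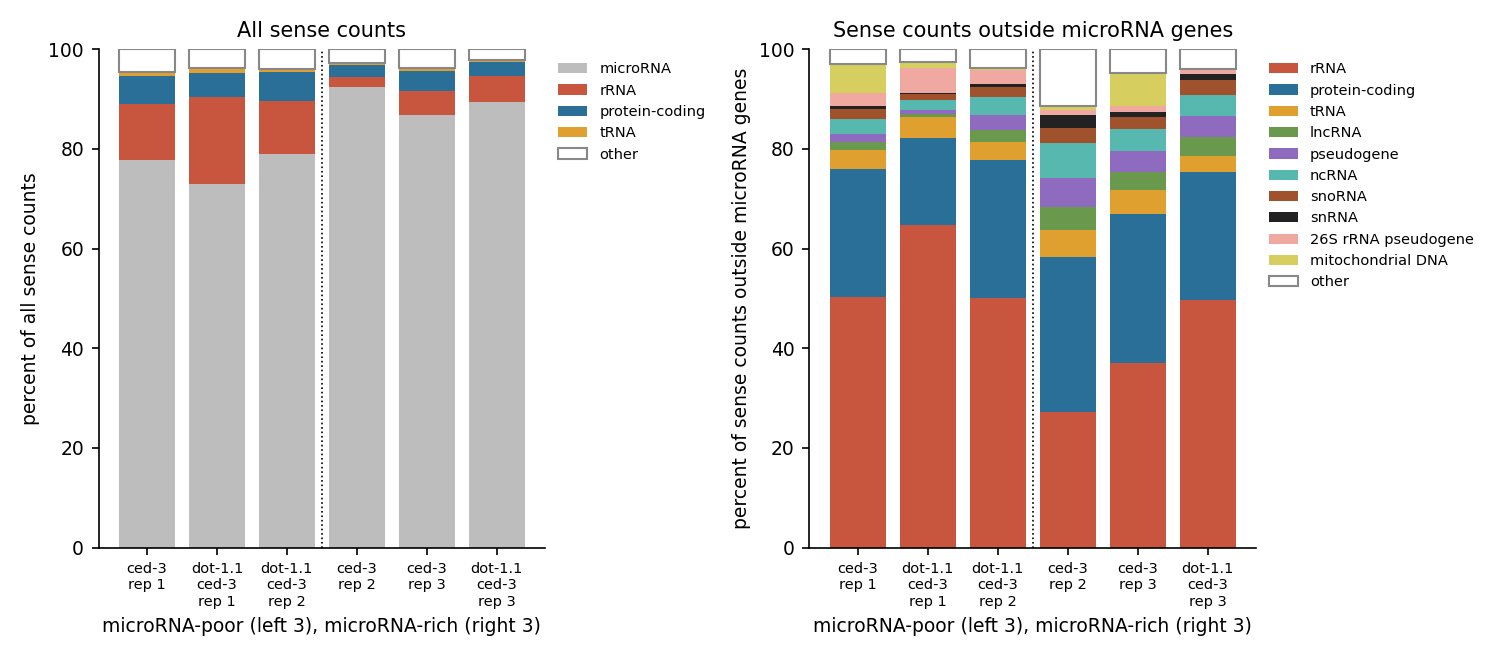
Stacked bars give each RNA class as a percent of all sense counts (left) and of sense counts outside microRNA genes (right) in each of the 6 libraries, with the dotted line between the microRNA-poor and the microRNA-rich side. Ribosomal RNA is the class that fills most of the difference on the left, and on the right replicate 3 of the double mutant, at 49.7%, lies just under the lowest microRNA-poor library.

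Ribosomal RNA made up most of what the microRNA-poor libraries held beyond microRNA. Its genes took 11.2%, 17.6% and 10.5% of all sense counts on the poor side and 2.08%, 4.92% and 5.22% on the rich side. Protein-coding genes took 5.74%, 4.76% and 5.82% against 2.37%, 3.98% and 2.69%, and transfer RNA genes 0.854%, 1.11% and 0.743% against 0.406%, 0.636% and 0.336%. None of these 3 classes overlapped between the sides, whereas long non-coding RNA, pseudogenes, small nuclear RNA and small nucleolar RNA did. Since shares of one library add up to 100%, a lower microRNA share leaves room for a higher share of every other class.

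With microRNA genes left out of the denominator, the order of the classes changed. Ribosomal RNA still stood higher on the poor side, at 50.2%, 64.7% and 50.05% against 27.3%, 37.03% and 49.7%, with little between the nearest libraries. Protein-coding genes overlapped, at 25.8%, 17.5% and 27.8% against 31.1%, 29.9% and 25.6%, and so did transfer RNA. Several smaller classes were now lower on the poor side in every library. Long non-coding RNA took 1.49%, 0.780% and 2.36% against 4.68%, 3.61% and 3.87%, and small nuclear RNA 0.682%, 0.289% and 0.643% against 2.64%, 1.15% and 1.11%. Pseudogenes, with 1.73%, 0.684% and 3.19% against 5.81%, 4.28% and 4.19%, were lower in the same way, as were small nucleolar RNA and the large class of other non-coding RNA genes.

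Relative to counts outside microRNA genes, the difference in ribosomal RNA lay with 26S RNA, the long RNA of the large subunit. The 26S gene rrn-3.1 (chromosome I, 15064838 to 15068346, WBcel235, plus strand) had 788682, 1801115 and 800777 sense counts on the poor side and 104289, 309930 and 159698 on the rich side. As a share of counts outside microRNA genes these are 18.5%, 33.8% and 19.5% against 6.13%, 11.11% and 5.76%, and the sides lie well apart. The ratio of the means was 3.12 on this scale. Within the single mutant the log2 ratio of poor to rich was 1.099, and within the double mutant it was 2.21. An annotated gene on the other strand overlaps rrn-3.1, so a part of its counts may be shared.

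The other ribosomal RNAs overlapped on this scale. The 18S genes rrn-1.1 and rrn-1.2, which make the small-subunit RNA, took 22.3%, 23.8% and 19.6% of counts outside microRNA genes against 13.5%, 17.7% and 31.8%, with replicate 3 of the double mutant highest of all. The 5.8S gene rrn-2.1 took 5.79%, 4.77% and 7.69% against 5.92%, 5.39% and 7.74%, and the 5S genes of the rrn-4 family 3.65%, 2.37% and 3.25% against 1.69%, 2.81% and 4.47%. In the 18S and 5S genes the log2 ratio of poor to rich was above 0 for single mutant libraries (0.51 and 0.69) and below 0 for double mutant ones (-0.55 and -0.67). Per 1000 microRNA counts, a denominator that chose the sides, each was higher in every poor library. The ratios of the means were 2.71 for 18S, 2.46 for 5.8S and 2.55 for 5S RNA beside 7.99 for 26S RNA. For all counts outside microRNA genes together the ratio on this scale was 2.62. Raw counts were apart for 5.8S RNA, 1.75-fold, and for 5S RNA, 1.80-fold, and overlapped for 18S RNA. The copies within each of these gene families are near-identical, and their counts cannot be assigned to single copies. An annotated pseudogene of 26S RNA beside the cluster, rrn-3.56, showed the same order of sides, with 109682, 267899 and 114508 sense counts against 15258, 33350 and 24277.

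**Figure D2:**
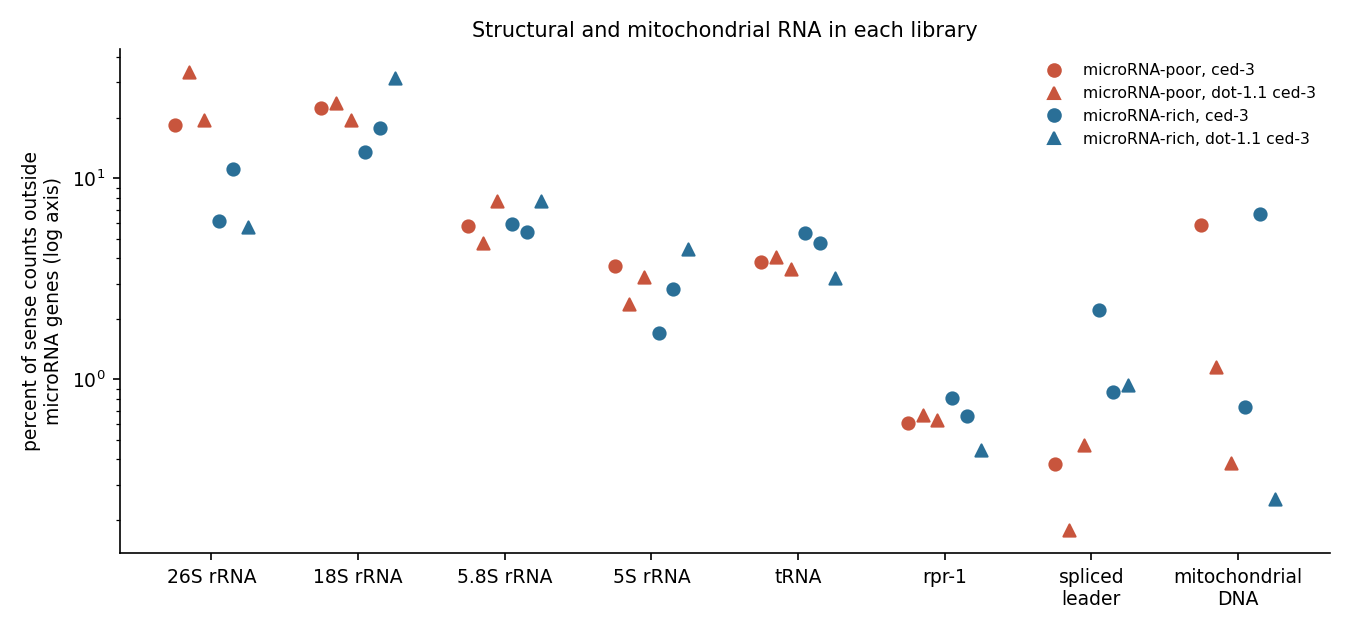
Each point is a library's share of sense counts outside microRNA genes, in percent on a log axis, for ribosomal RNAs, transfer RNA, the RNase P RNA rpr-1, spliced leader RNA and genes of mitochondrial DNA. Only 26S RNA (higher) and spliced leader RNA (lower) separate the microRNA-poor from the microRNA-rich libraries among the 8 groups plotted.

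Spliced leader RNA went the other way from 26S RNA. The sls genes make the short leader that is trans-spliced onto the front of most worm messenger RNAs. Together they had 16216, 9480 and 19330 sense counts on the poor side and 37735, 24066 and 26076 on the rich side. They were thus lower in the libraries that held more counts outside microRNA. As a share of counts outside microRNA genes they took 0.380%, 0.178% and 0.472% against 2.22%, 0.863% and 0.941%. Per 1000 microRNA counts they overlapped, at 1.09, 0.662 and 1.25 against 1.83, 1.32 and 1.103. The most abundant of them, sls-1.12 (chromosome V, 17118154 to 17118251), had 7576, 4621 and 9243 counts against 19238, 11808 and 12815.

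Neither RNase P RNA nor mitochondrial RNA followed the split as a share of counts outside microRNA genes. The RNase P RNA rpr-1, which matures transfer RNA ends, took 0.606%, 0.664% and 0.626% of counts outside microRNA genes against 0.809%, 0.656% and 0.443%, a ratio of 0.994. Its raw counts were apart, at 25891, 35422 and 25627 against 13756, 18306 and 12281. Per 1000 microRNA counts its ratio of the means was 2.68, also without overlap, beside 2.62 for all counts outside microRNA genes. Genes of mitochondrial DNA, a group chosen after the values were seen, ranged more widely than the sides differed. They had 250073, 61353 and 15747 sense counts on the poor side and 12379, 184769 and 7056 on the rich side, a 35.4-fold range. The highest 2 libraries were replicates 1 and 3 of the single mutant, 1 from each side.

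Composition within the microRNAs was described from shares of microRNA counts, again with no test. Of 83 microRNAs with a mean of at least 1000 counts, 5 were higher in every microRNA-poor library and 15 were lower in every one. These are 6.02% and 18.1% of the 83. The other 63 overlapped, and the median log2 ratio of poor to rich was -0.12. A difference of at least 2-fold was found in 0 of the higher and 5 of the lower ones. The libraries poor in microRNA were also the more concentrated. Their 5 most abundant microRNAs held 58.4%, 57.8% and 59.0% of microRNA counts against 50.9%, 56.7% and 54.1%.

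Both of the most abundant microRNAs overlapped between the sides, and some of the next ranks did not. The most abundant, mir-35 (chromosome II, 11537608 to 11537704), held 16.9%, 17.9% and 17.1% of microRNA counts against 15.6%, 18.98% and 16.1%. The muscle microRNA mir-1 (chromosome I, 6172662 to 6172757) held 15.7%, 16.1% and 14.7% against 12.7%, 13.3% and 14.9%. An exon on the other strand overlaps mir-1. The third in rank, mir-44 (chromosome II, 11890023 to 11890118), held 13.8%, 12.3% and 12.03% against 11.04%, 11.4% and 7.18%, higher in every poor library, with a ratio of the means of 1.29. Its near-identical copy mir-45 showed the same order, at 4.61%, 4.15% and 4.002% against 3.63%, 3.78% and 2.41%, and reads of the pair may not be separable.

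**Figure D3:**
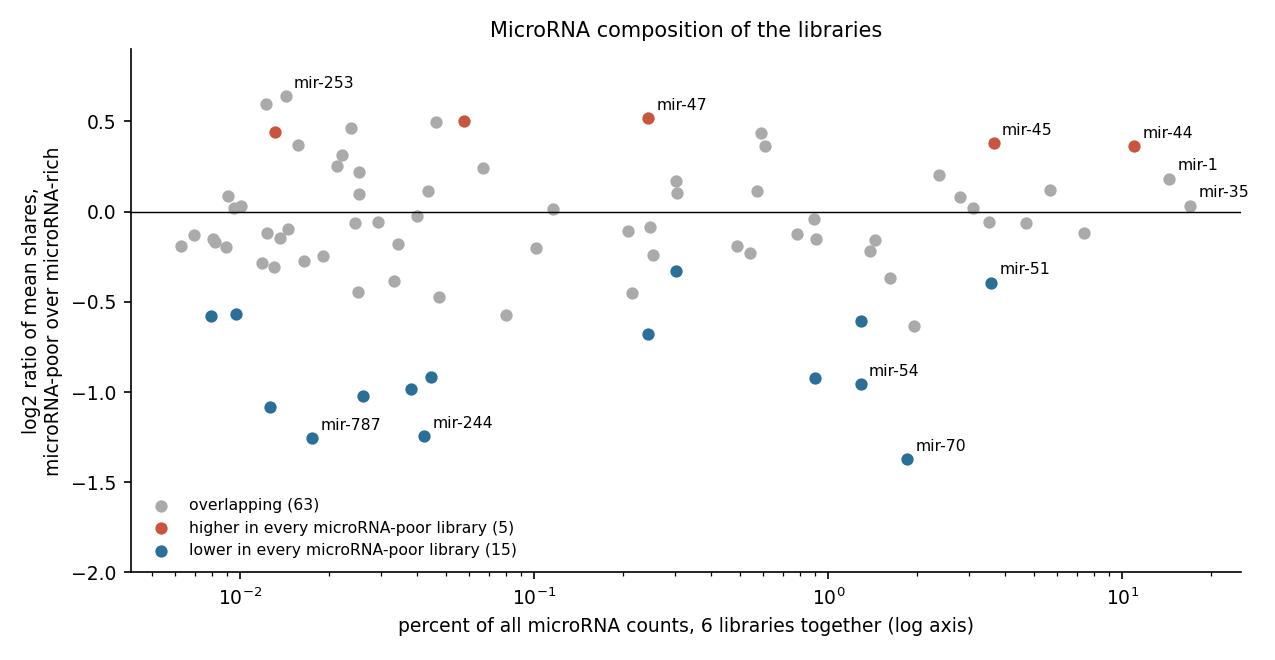
Each point is one of 83 microRNAs, with its percent of all microRNA counts over the 6 libraries together on a log axis and the log2 ratio of its mean share in microRNA-poor over microRNA-rich libraries. The 10 most abundant lie between -0.39 for mir-51 and 0.38 for mir-45, and the largest departures, down to -1.37 for mir-70, are below 0.

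The mir-51 family was lower on the poor side. This family is broadly expressed and essential in embryos, and its 6 members together held 5.94%, 6.04% and 5.39% of microRNA counts against 9.63%, 6.86% and 7.91%. Its largest member, mir-51 (chromosome IV, 11026013 to 11026112), held 3.37%, 3.07% and 2.63% against 4.98%, 3.44% and 3.50%. For mir-54 the shares were 0.792%, 0.917% and 0.792% against 2.08%, 1.41% and 1.36%, a log2 ratio of -0.96. By contrast the mir-35 family as a whole held 33.3%, 33.7% and 36.7% against 31.3%, 36.8% and 36.2%, and the mir-58 family, relatives of the fly microRNA bantam, 9.60%, 9.23% and 10.3% against 10.6%, 9.44% and 11.9%. Both of these overlap.

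The lowest ratio belonged to mir-70 (chromosome V, 6665536 to 6665635), and 1 library set much of it. Its shares were 1.43%, 1.41% and 0.0169% against 2.94%, 1.76% and 2.69%, so that replicate 2 of the double mutant stood far below every other library. The log2 ratio of poor to rich was -1.37, and -0.80 without that library, an alternative chosen after the data were seen. The next lowest were mir-787, mir-244, mir-1820 and mir-41, of low abundance, with log2 ratios from -1.26 to -1.02. In mir-41, a member of the mir-35 family, the shares were 0.0136%, 0.0104% and 0.0251% against 0.0408%, 0.0299% and 0.0287%. The highest ratios, in mir-253 (0.64) and mir-4808 (0.60), came with overlapping libraries.

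How many genes lay apart, and on which side, depended on how the libraries were scaled. Counts per 1000000 were taken with trimmed-mean (TMM) factors, which were 1.95, 1.24 and 1.16 on the poor side and 0.580, 1.14 and 0.533 on the rich side for sense counts. Under this scaling 679 of 7680 sense genes (8.84%) were higher and 443 (5.77%) lower on the poor side, with a median log2 ratio of 0.02. Scaled by counts outside microRNA genes, 501 (6.52%) were higher and 762 (9.92%) lower, and the median was -0.15. In that scaling the higher ribosomal RNA share of the poor side lowers the scaled values of other genes there. Scaled by library totals, which microRNAs dominate, 2012 (26.2%) were higher and 37 (0.482%) lower, and the median was 0.96. Leaving microRNA genes out of the TMM factors gave 612 higher (7.97%) and 492 lower (6.41%), and DESeq2 size factors 662 (8.62%) and 454 (5.91%). Among the 7297 antisense genes TMM gave 624 higher (8.55%) and 327 lower (4.48%), and scaling by counts outside microRNA genes gave 924 (12.7%) and 143 (1.96%), with median log2 ratios of -0.05 and 0.23. TMM without microRNA genes called 625 (8.57%) and 328 (4.49%), DESeq2 size factors 657 (9%) and 302 (4.14%), and library totals 1615 (22.1%) and 67 (0.918%).

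**Figure D4:**
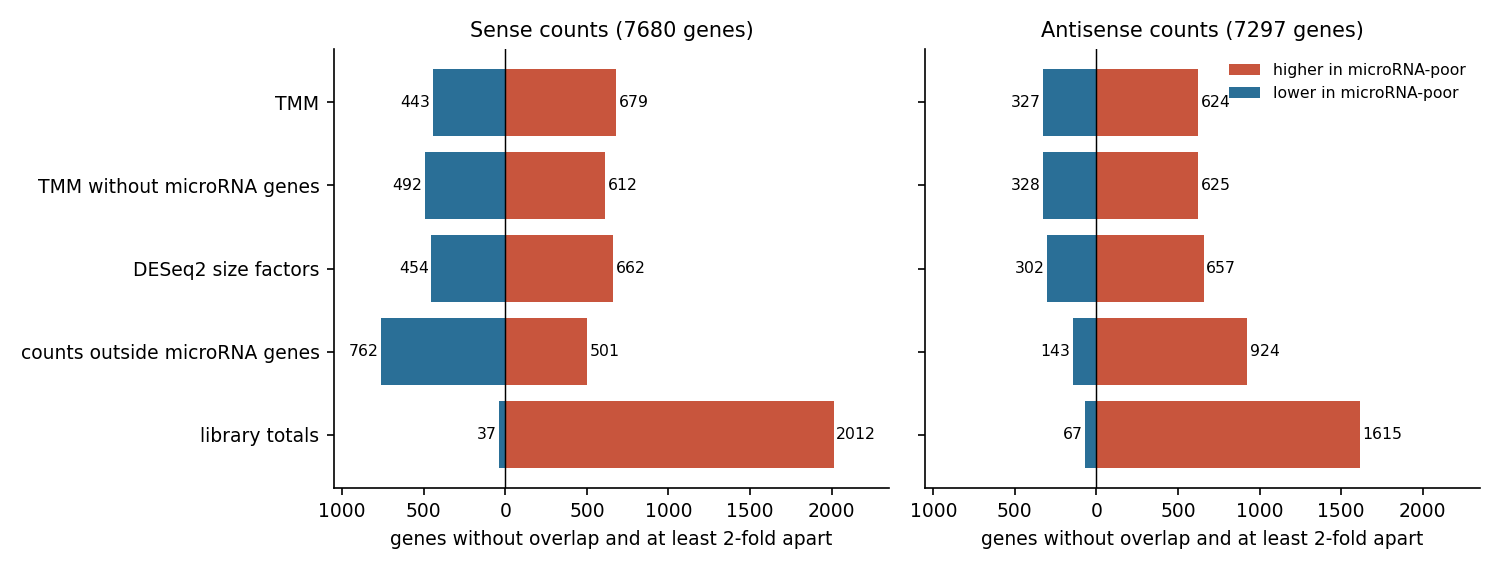
Bars give the number of genes whose 3 microRNA-poor libraries lie all above (right) or all below (left) the 3 microRNA-rich ones with means at least 2-fold apart, under each of 5 scalings. Library totals give the most genes on the higher side in both tables, with 2012 sense and 1615 antisense genes, and in the sense table scaling by counts outside microRNA genes gives more lower than higher genes.

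Most genes on the higher side were highest in the same library. Replicate 1 of the double mutant, the library with the lowest microRNA share, was highest in 625 of the 679 sense genes (92.0%) and in 585 of the 624 antisense genes (93.8%). On the lower side the lowest library was more often replicate 1 of the single mutant in the sense table, with 249 of 443 genes (56.2%). Among the higher genes, 233 by sense counts and 246 by antisense counts passed the low count filter through the poor side alone, so their difference was in part set by the filter. The classes were unequal. Of 178 microRNA genes 0 were higher and 71 lower under TMM, a direction that the choice of libraries by microRNA share sets. Of 574 transfer RNA genes 118 were higher (20.6%) and 24 lower. Where such genes share a sequence, their calls are not separate observations, and the class share outside microRNA genes overlapped between the sides. Of 52 long non-coding RNA genes 4 were higher and 16 lower (30.8%). Of 5939 protein-coding genes 477 were higher (8.03%) and 228 lower (3.84%). Of 2737 genes that passed the low count filter in both tables and have no exon on the other strand, 19 were higher on both, which is 12.7% of those higher in sense and 11.9% of those higher in antisense, and 27 were lower on both, 20.8% and 21.4%. Over all 2737, sense counts were higher in 5.48% and lower in 4.75%, and antisense counts higher in 5.85% and lower in 4.60%. Another 2 genes were higher in sense and lower in antisense counts, and 5 the reverse. Both tables come from the same libraries.

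In the first principal component of the sense genes without microRNAs, with 53.2% of the variance, the libraries formed a range and not 2 separate groups. Replicate 1 of the double mutant lay at one end (0.63) and replicate 2 of the single mutant at the other (-0.51). Replicate 2 of the double mutant (0.07) and replicate 3 of the single mutant (-0.01), which the threshold puts on opposite sides, were next to each other in the middle. The second component, with 23.8%, placed the genotypes on different sides of 0.

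The sense genes with the largest ratios on the higher side had few counts in the rich libraries. The long non-coding RNA tts-1 (chromosome X, 1504131 to 1504841), known from dauer larvae and long-lived adults, had 34, 267 and 38 sense counts against 0, 5 and 1. Counts of asp-6 (chromosome V, 8267511 to 8268937), an aspartyl protease gene, were 56, 568 and 163 against 7, 10 and 3. The chemoreceptor gene srh-298 (chromosome V, 17818867 to 17821003) had 99, 532 and 128 against 1, 20 and 2. In all 3 genes replicate 1 of the double mutant was far the highest. Both tts-1 and asp-6 passed the low count filter through the poor side alone, and srh-298 reached its level in 1 rich library, so their place among the higher genes was in part set by the filter. The log2 ratios of the means were 5.60, 4.77 and 4.84 under TMM and 4.96, 4.18 and 4.18 when scaled by counts outside microRNA genes. The rest of the 8 named by the same rule, among 127 eligible genes, were tag-329, Y66D12A.13, clx-1, Y65B4A.2 and K11H3.5, with log2 ratios from 4.06 to 4.66.

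On the lower side the named sense genes included non-coding RNAs. The non-coding RNA rncs-1 (chromosome X, 1011501 to 1012347), a structured RNA that binds Dicer, had 2297, 2412 and 1798 counts against 12418, 3747 and 1589. Raw counts of rncs-1 thus overlap. Under TMM the sides part, at 61.5, 98.9 and 79.5 counts per 1000000 against 959, 156 and 113, with replicate 2 of the single mutant far above the rest, and they part as a share of counts outside microRNA genes. Per 1000 microRNA counts they overlap, at 0.154, 0.168 and 0.117 against 0.602, 0.206 and 0.0672, and within the double mutant the log2 ratio of poor to rich is then 1.08. Per 1000000 sense counts they overlap too, with replicate 3 of the double mutant lowest at 60.2. The long non-coding RNA linc-7 (chromosome X, 16002599 to 16003728) had 39, 57 and 34 counts against 127, 123 and 136, apart without any scaling. Among the 94 eligible genes Y54F10BM.9 had the lowest ratio, with 189, 126 and 142 counts against 662, 424 and 645 and a log2 ratio of -2.80. The others were C06A6.9, C28G1.9, C14E2.12, C44B11.6 and T02G6.4.

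In the antisense table the higher genes again had their largest value in replicate 1 of the double mutant. The chemoreceptor gene str-185 (chromosome IV, 4427601 to 4430001) had 61, 656 and 206 antisense counts against 2, 11 and 4, a log2 ratio of 5.50. The receptor guanylyl cyclase gene gcy-11 (chromosome X, 17046241 to 17055581) had 67, 772 and 205 against 3, 22 and 5. Of the 8 named among 139 eligible genes, gsto-2, a glutathione S-transferase gene, and nlp-22, a neuropeptide gene, had 66, 200 and 46 against 2, 6 and 1 and 41, 219 and 72 against 0, 6 and 3. The remaining 4 were Y62H9A.10, C30F8.6, fbxc-35 and T25B6.1. Of the 8, gsto-2, nlp-22 and C30F8.6 passed the filter through the poor side alone. On the lower side the gene with most counts was Y116F11A.1 (chromosome V, 19730580 to 19732242), with 4244, 3770 and 4656 against 18590, 12199 and 19658, so the sides stood apart in raw counts as well. The other 7 of 80 eligible genes included C44B11.6, an ERGO-1 class locus, at 317, 229 and 351 against 1357, 924 and 1349, and T02G6.4, both of which were also named in the sense table. F40D4.16, C16C4.19, F28C12.6, Y17D7C.6 and ZK380.5 had log2 ratios from -2.60 to -2.26.

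Loci of the ERGO-1 class were lower in antisense counts on the poor side. All 11 members found in the tables passed the low count filter, and 8 were lower and 0 higher, beside 4.48% lower among all antisense genes. Their median log2 ratio was -1.57 under TMM and -1.23 scaled by counts outside microRNA genes, against -0.05 and 0.23 over all genes. Scaled by library totals, 5 members were lower, beside 0.918% of all antisense genes. Summed antisense counts were 31788, 26136 and 30349 against 82396, 60496 and 70361, and per 1000000 microRNA counts 2128, 1825 and 1967 against 3991, 3323 and 2977. The sides were thus apart with no scaling, and also relative to microRNA. At K02E2.6 (chromosome V, 20380561 to 20382036), a well-studied target of this pathway, there were 4822, 5064 and 5732 antisense counts against 20150, 13191 and 17195. The same held within each genotype, with log2 ratios of -2.22 for single and -2.26 for double mutant libraries.

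Sense counts at the same loci behaved differently. Of the 11 members 5 were lower under TMM and 8 when scaled by counts outside microRNA genes, and 0 under library totals. Over all sense genes the lower share was 5.77%, 9.92% and 0.482% under these scalings in turn. Summed per 1000000 microRNA counts they were 4266, 1678 and 5667 against 3481, 5191 and 3397, which overlap. At K02E2.6 the sense counts were 10413, 4197 and 17452 against 14487, 20993 and 18706. Replicate 1 of the double mutant was lowest there, and in the summed counts. Exons of F39E9.7, F55C9.5 and Y37E11B.2 overlap exons on the other strand, so these 3 are uncertain on both strands. Over the other 8 loci the antisense sums were 17908, 14756 and 16143 against 42510, 30422 and 35188.

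**Figure D5:**
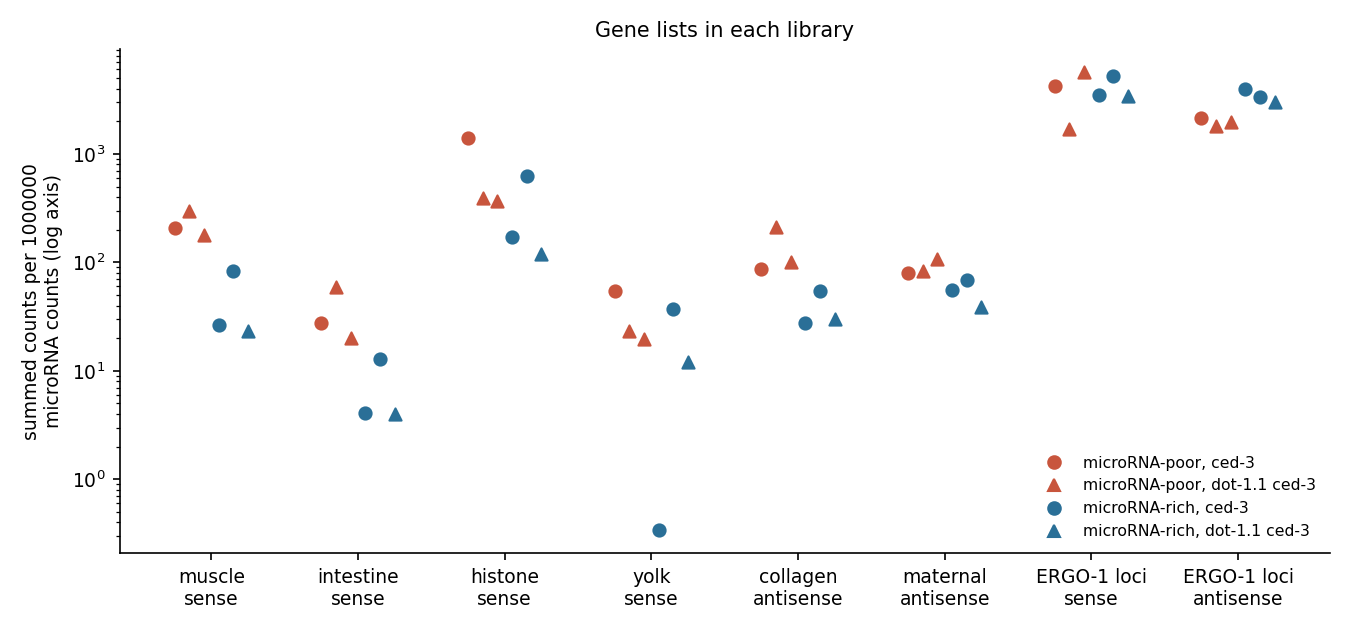
Each point is the summed count of a gene list in 1 library per 1000000 microRNA counts, on a log axis, by side (color) and genotype (shape). Muscle and intestine sense counts and collagen and maternal antisense counts are higher on the microRNA-poor side of this scale, whose denominator chose the sides, and ERGO-1 antisense counts lower, while histone, yolk and ERGO-1 sense counts overlap.

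Muscle genes lay mostly on the higher side in sense counts. Summed over all 24 listed genes, whether or not they passed the low count filter, there were 3117, 4299 and 2740 sense counts against 548, 1521 and 549, and TMM scaling left the sides apart (log2 ratio 1.40). Of 22 members that passed the filter 15 were higher and 0 lower, beside 8.84% higher among all sense genes. Of these 15, mlc-2, tnt-2, unc-27 and unc-87 passed through the poor side alone, so their difference was in part set by the filter. That leaves 11. Scaled by counts outside microRNA genes 10 were higher, among them mlc-2, tnt-2, unc-27 and unc-87, beside 6.52% of all sense genes. The median log2 ratio over the 22 was 1.41 under TMM and 1.07 under that scaling, against 0.02 and -0.15 over all genes. Both medians include the 4 genes that passed through the poor side alone, so they were in part set by the filter. The body-wall myosin gene unc-54 (chromosome I, 14855901 to 14863482) had 431, 882 and 545 sense counts against 67, 242 and 56. The pharyngeal myosin gene myo-2 had 127, 273 and 87 against 14, 31 and 12, and the second body-wall myosin gene myo-3 321, 445 and 314 against 30, 99 and 33. In each of these the sides were apart in raw counts. By contrast the chaperone gene unc-45, with 56, 39 and 36 against 19, 29 and 27, had a TMM log2 ratio of 0.03, and that of the perlecan gene unc-52 was -0.14.

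Intestine genes were fewer. Of 19 members found, 8 passed the filter, and 5 of them were higher, beside 8.84% of all sense genes, with a median log2 ratio of 1.66 over the 8. Summed over all 19, sense counts were 412, 850 and 308 against 85, 232 and 95. The 5 higher members were the protease genes asp-1, asp-3 and cpl-1, the intermediate filament gene ifb-2 and the proton pump gene vha-6. The last passed through the poor side alone, with 32, 70 and 24 counts against 4, 10 and 5, which leaves 4. The median of 1.66 includes vha-6 and was thus in part set by the filter. Counts of asp-1 were 75, 196 and 97 against 10, 32 and 10. The members that passed without a call, act-5, cpr-6 and pept-1, overlapped between the sides under TMM. Their log2 ratios were 0.10, 0.89 and 0.33, and -0.17, 0.42 and 0.08 scaled by counts outside microRNA genes. Counts of act-5 were 44, 27 and 18 against 17, 29 and 5. Under scaling by counts outside microRNA genes 3 of the 8 were called, vha-6 again among them, beside 6.52% of all sense genes. Without replicate 1 of the double mutant 2 members were called. Counts here are fragments of 18 to 40 bases summed over a gene and do not measure the full messenger RNA, and in a whole embryo fewer cells of a type and less RNA per cell cannot be told apart.

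Other lists of embryonic and adult genes gave few calls, to be read beside 8.84% higher and 5.77% lower among all sense genes. Of 79 ribosomal protein genes that passed the filter 3 were higher in sense counts (3.8%) and 0 lower, with a median log2 ratio of 0.80. Of 73 histone genes that passed it 0 were higher and 2 lower (2.74%), and their summed counts of 21127, 5558 and 5681 against 3507, 11343 and 2814 overlapped through replicate 3 of the single mutant. Many copies of both kinds are near-identical. The yolk protein genes, which adults transcribe, had 0 of 6 members apart and summed sense counts of 813, 337 and 304 against 7, 677 and 284. Replicate 2 of the single mutant was thus nearly empty of yolk fragments, while replicate 3 of the same genotype and side held the second highest number.

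Of 27 maternal and germline genes 3 were higher (11.11%) and 2 lower (7.41%) in sense counts, near the shares of all sense genes, with a median log2 ratio of -0.05. One of the 3, oma-2, passed the filter through the poor side alone. Per 1000000 microRNA counts, the counts that chose the sides, summed antisense counts of the same list were higher in every poor library, but under TMM their log2 ratio was -0.14, with overlap, and 0 of 28 members were apart. Summed sense counts of the neuron, sperm, early zygotic and small RNA pathway lists were likewise higher in every poor library relative to microRNA and overlapped under TMM. The germline helicase genes glh-1 and glh-2, related in sequence, differed. For glh-1 the TMM-scaled counts per 1000000 were 3.56, 4.26 and 4.91 against 18.9, 6.30 and 8.46, lower on the poor side (log2 ratio -1.40), though its raw counts overlap. For glh-2 the raw counts were 132, 358 and 176 against 30, 64 and 17, higher there (2.07). Of 35 small RNA pathway genes 3 were higher (8.57%) and 0 lower, again near the share of all sense genes, with a median of -0.20. Among them ekl-1, a germline small RNA factor, had 113, 526 and 121 sense counts against 18, 40 and 12, whereas the microRNA Argonaute gene alg-1 had 165, 107 and 467 against 97, 220 and 173. Of 6 early zygotic genes 1 was higher, of 15 neuron genes 2, and of 5 sperm genes 0.

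Antisense counts of collagen genes stood higher on the poor side in sum. Over all 177 they were 1288, 3022 and 1564 against 572, 996 and 708. Of 28 members that passed the filter of the 177, 11 were higher and 2 lower, with a median log2 ratio of 0.70, beside 8.55% and 4.48% among all antisense genes. However, 8 of the 11, bli-1 among them, passed through the poor side alone, which leaves 3. The largest by counts was bli-1, which overlaps an exon on the other strand, with 11, 818 and 10 against 1, 7 and 0. Replicate 1 of the double mutant held nearly all of its counts. The cuticle collagen gene col-127 had 89, 226 and 111 against 5, 21 and 13. Under TMM col-53 and col-98 were lower, but raw antisense counts of col-98 overlap, at 22, 18 and 32 against 22, 82 and 22. Scaled by counts outside microRNA genes 12 members were higher and 0 lower, beside 12.7% and 1.96% of all antisense genes. Of the 28 members 11, called or not, passed the filter through the poor side alone, so the median and the calls under this scaling were also in part set by the filter. Antisense muscle counts showed the pattern less, with 4 of 13 members higher and a median of 0.41. Of these 4, myo-2 passed through the poor side alone, which leaves 3. Of the 13 members 3, called or not, passed in this way, so that median too was in part set by the filter.

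The balance of strands in protein-coding genes depended on 3 genes. Over those without an opposite-strand exon, antisense counts made up 30.3%, 33.9% and 28.6% of both strands on the poor side and 53.9%, 39.8% and 41.0% on the rich side. The genes trxr-1 (a thioredoxin reductase, chromosome IV, 7011954 to 7016586), acdh-1 (an acyl-CoA dehydrogenase, chromosome I, 6497436 to 6499560) and C55B7.3 (chromosome I, 6499982 to 6501410) had nearly equal sense counts in each library. In acdh-1 these were 147402, 155247 and 193685 against 36616, 81993 and 91583, and C55B7.3 differed from it by at most 6 counts. Such counts may be the same reads assigned to each gene. Together the 3 took 48.6%, 58.07% and 59.7% of the sense counts concerned against 28.6%, 37.9% and 48.5%. Without them the antisense share was 45.9%, 55.1% and 49.9% against 62.1%, 51.5% and 57.4%, and the sides overlapped.

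Genotype could be tested, since it was not used to choose the sides. With edgeR's quasi-likelihood test and Benjamini-Hochberg adjustment, the double mutant had 0 genes higher and 0 genes lower than the single mutant in either table, with TMM factors computed without microRNA genes. Adding the side of each library as a covariate left both counts at 0 in both tables. At an unadjusted p under 0.05 the sense counts of 452 genes were higher and 212 lower without the covariate and 405 and 355 with it, and the antisense counts of 211 and 174 genes became 239 and 206. DESeq2 called 9 sense genes higher and 1 lower, and 0 and 6 antisense genes. On simulated sense counts edgeR recovered 58.0% of 8-fold and 15.1% of 4-fold changes, so smaller differences would mostly be missed.

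The genes with the smallest p stayed above 0.05 after adjustment, with or without the side in the fit. Antisense counts of the pseudogene AC8.12 were 64, 43 and 31 in replicates 1 to 3 of the single mutant, against 2, 1 and 3 for the double mutant. Its log2 fold change was -4.38 ± 0.54 (SE) with an edgeR adjusted p of 0.0899, and with the side as a covariate it was -4.40 with an edgeR adjusted p of 0.0668. The yolk gene vit-4, which overlaps an exon on the other strand, had 3, 0 and 1 sense counts in single mutant libraries against 12, 24 and 21 in double mutant ones. The edgeR adjusted p of vit-4 was 0.571 without and 0.150 with the covariate. At dot-1.1 itself, single mutants had 75, 66 and 55 sense counts and double mutants 23, 40 and 32, and at ced-3 5, 1 and 4 against 4, 3 and 5, levels that do not check the labels. The shares of 13 RNA classes in counts outside microRNA genes were compared between genotypes by a two-sided exact permutation test. Its smallest possible p here is 0.1, so no class could pass 0.05 and the test cannot decide. In this permutation test the smallest p was 0.2 and the smallest adjusted p 0.557. For ribosomal RNA single mutant libraries held 38.2% ± 11.5 and double mutant libraries 54.8% ± 8.55 (SD, n = 3, exact permutation p = 0.3).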

How the data were processed

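Small RNA was measured in 6 libraries, 3 for each genotype. The authors deposited 2 tables of raw read counts per gene (sense and antisense, 32238 genes each) with a gene length column that was not used as a measure, and 0 columns of per-library values were left unused. The build is WBcel235 per the submitters' processing notes; for the aligner, the counter and reads with several matches, the setting was not given in the sources used here. Short names in the titles of replicates 2 and 3 differ from the column names, so replicates 2 and 3 might be exchanged within a genotype but not between genotypes. Gene classes came from RefSeq (30524 genes matched by symbol, 894 by sequence name), and exons and positions from Ensembl gene models for WBcel235 (31455 matched).

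MicroRNA genes were the 258 with symbols mir-, let-7, lin-4 or lsy-6. Counts were filtered and TMM-scaled with edgeR 4.0.16 in R 4.3.3, separately per table, and alternatives were library totals, counts outside microRNA genes, TMM without microRNA genes and DESeq2 1.42.0 size factors. For antisense counts, genes across from a microRNA gene were left out of the counts outside microRNA. Log2 ratios are of mean scaled counts with no pseudocount. Genotype was tested with edgeR's quasi-likelihood test, adjusted over all genes of a table, or by exact permutation (SciPy 1.17.1). The p-values weigh the difference between genotypes against the spread between libraries only, and that spread may be partly technical. The genotype fit was tested on simulated counts, where sense and antisense runs of 6805 and 6762 genes gave 1 and 12 false calls beside 200 changed genes.

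The libraries, gene lists and rules were chosen with earlier results of these data known. Named genes are the 10 most abundant microRNAs and the 6 with the highest and lowest ratio, the 8 genes of largest ratio in each direction of each table (no microRNA, mean count of at least 50, no exon on the other strand, apart under TMM and under scaling by counts outside microRNA genes), the most abundant genes of classes and lists, the mutated genes and those of smallest genotype p. Members of the muscle, intestine, collagen and ERGO-1 lists, mir-54 and the mitochondrial group were also named after their values were seen.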

Additional observations from a re-analysis of the deposited data

Results flagged for a closer look

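The transfer RNA share of sense counts outside microRNA genes pointed in opposite directions in the genotypes. In the single mutant it was 3.84% in the microRNA-poor library and 5.33% and 4.79% in the microRNA-rich ones, a log2 ratio of -0.398. In the double mutant it was 4.08% and 3.54% in the microRNA-poor libraries and 3.20% in the microRNA-rich one, a log2 ratio of 0.253. The difference between genotypes was not tested, and each genotype has a single library on one of the sides.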

How the results depend on the processing

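Of the results recomputed under each alternative, 136 values stayed within a set distance of the main value, though not equal to it. Another 26 were stronger, which for gene counts means clearly more genes, and 15 were weaker, which means clearly fewer. A further 17 shifted and 1 reversed. Sense genes lower on the poor side numbered 762 scaled by counts outside microRNA genes, 37 by library totals, 294 without opposite-strand exons, 51 with at least a 4-fold difference and 754 with no fold required. Sense genes higher numbered 2012 by totals and 299 with at least 4-fold. Antisense genes lower numbered 143 scaled by counts outside microRNA genes, 67 by totals, 216 with a mean count of at least 20, 172 with no exon on the other strand, 34 with at least 4-fold and 890 with no fold required, and those higher 1615 by totals, 403 with no exon on the other strand and 323 with at least 4-fold. Median log2 ratios in the sense table were -0.052 with TMM without microRNA genes, -0.15 scaled by counts outside them and 0.96 by totals, and in the antisense table -0.022 with DESeq2 size factors, 0.23, 0.62 and, with no exon on the other strand, -0.015. The poor minus rich difference in ribosomal RNA share was 9.002 percentage points of all sense counts and 16.98 outside microRNA genes, and that of protein-coding genes 2.43 and, reversed, -5.18. Beyond fewer genes or the changed denominator, the cause was not tested.

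Leaving out each library in turn, which loosens the rule of no overlap by construction, gave 646 to 1434 sense genes higher and 453 to 1057 lower, 567 to 1280 antisense genes higher and 361 to 636 lower, and medians of -0.17 to 0.10 and -0.085 to 0.049. The microRNA share differed by -14.4 to -11.1 points, ribosomal RNA by 6.76 to 10.3 and protein-coding genes by 2.11 to 2.91. Muscle members higher numbered 15 to 16, intestine 2 to 7 and antisense collagen 11 to 19, and ERGO-1 loci lower 8 to 9 in antisense and 4 to 10 in sense counts. These list alternatives, and the one without trxr-1, acdh-1 and C55B7.3, were chosen after the data were seen.

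For genotype, DESeq2 called 9 sense genes higher and 1 lower and 6 antisense genes lower. With no low count filter edgeR called 102 and 15 sense genes and 89 and 25 antisense genes. Without replicate 3 of the double mutant 6 sense genes were higher, and sense calls ranged from 0 to 6. Deviations from the genotype means correlated at 0.671 in sense and 0.641 in antisense counts for the libraries numbered 1, but at 0.027 and -0.019 for those numbered 2 and -0.121 and -0.027 for those numbered 3, so the numbers were not taken to pair the libraries. Replicate 2 of the single and replicate 3 of the double mutant correlated at 0.573 and 0.554. A fit with the replicate block called 0 genes in either table, and an unadjusted p under 0.05 was reached by 463 sense genes that were higher and 216 that were lower. Depth outside microRNA genes, 1701270 to 5334828 sense counts, limits what can be seen of low genes.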
